A study of Mus musculus with 45 samples.

Results

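This section follows 8 genes of B cells and of antigen presentation through MHC class II, out of 24946 usable genes in a mouse liver expression table. The members were taken by gene symbol: Cd79a, Cd79b and Ms4a1 for the B cell, and Cd74, H2-Aa, H2-Ab1, H2-Eb1 and Ciita for MHC class II. All 8 were found. The table holds 45 bulk RNA libraries of liver lysate from wild-type mice on the Lieber-DeCarli liquid diet, which is used to model alcohol-associated liver disease. Peak libraries (16) followed 6 weeks of the control or the ethanol diet. For early resolution (15 libraries) the ethanol diet of 6 weeks was followed by 3 days of control diet, and for late resolution (14 libraries) by 2 weeks of control diet. The protocol gives these resolution diets for ethanol-fed mice and does not say what the resolution controls were fed. At each stage libraries carry a control or ethanol diet label (24 and 21 libraries) and a female or male sex label (22 and 23). That gives 12 groups, 9 of 4 libraries and 3 of 3: the early ethanol females, the late ethanol females and the late ethanol males. The labels give no strain or age and do not say whether each library is a separate animal, so p-values measure the spread between libraries, which may be technical.

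B cells sense antigen through a membrane immunoglobulin that signals through the paired chains Cd79a (Ig-alpha) and Cd79b (Ig-beta), and Ms4a1 encodes their surface protein CD20. MHC class II molecules show peptides to CD4 T cells and are made by B cells, dendritic cells and macrophages; in liver, Kupffer cells and dendritic cells carry them, and hepatocytes carry little or none at rest. H2-Aa and H2-Ab1 encode the chains of the I-A molecule, H2-Eb1 the beta chain of I-E, Cd74 the invariant chain that guides both through the cell, and Ciita the transactivator that switches the whole set on. In bulk liver, fewer cells of a type and less RNA per cell cannot be told apart.

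The labels have a limit that bears on every result here. Xist, the X-inactivation RNA made from the silenced X, stood at 13.7 to 51.8 TPM (a gene's share of all transcripts, scaled by length) in 21 of 21 ethanol-labelled libraries, and there the Y-linked Eif2s3y did not exceed 0.0386 TPM. Conversely, 23 of the 24 libraries with a control label had 7.83 to 12.7 TPM of Eif2s3y and no more than 0.349 TPM of Xist. These transcripts went against the sex label in 22 of 45 libraries. The diet label and the sex-chromosome pattern therefore cannot be told apart, and every direction below refers to libraries as labelled. The 1 control-labelled library with the Xist pattern was late control female 1 (Xist 39.5 TPM, Eif2s3y listed at 0), which also had the highest MHC class II levels of the 8 late control-labelled libraries. A second library, late ethanol male 1, stood apart in the B cell genes. The late differences between diet labels are therefore also given without them.

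Levels in TPM are scaled by transcript length, so genes can be compared. Over the 45 libraries Cd74 had a mean of 143 TPM, H2-Aa 64.6 TPM, H2-Eb1 30.1 TPM and H2-Ab1 19.8 TPM. The B cell receptor chains were far lower, with 2.04 TPM for Cd79a and 1.83 TPM for Cd79b. Ciita (0.28 TPM) and Ms4a1 (0.169 TPM) were the lowest. Both lay under the mean of 0.5 TPM required for the test across genes, so 6 of 8 members were tested with 11244 genes in all. Ms4a1 and Ciita were tested one at a time with an exact permutation test.

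**Figure D1:**
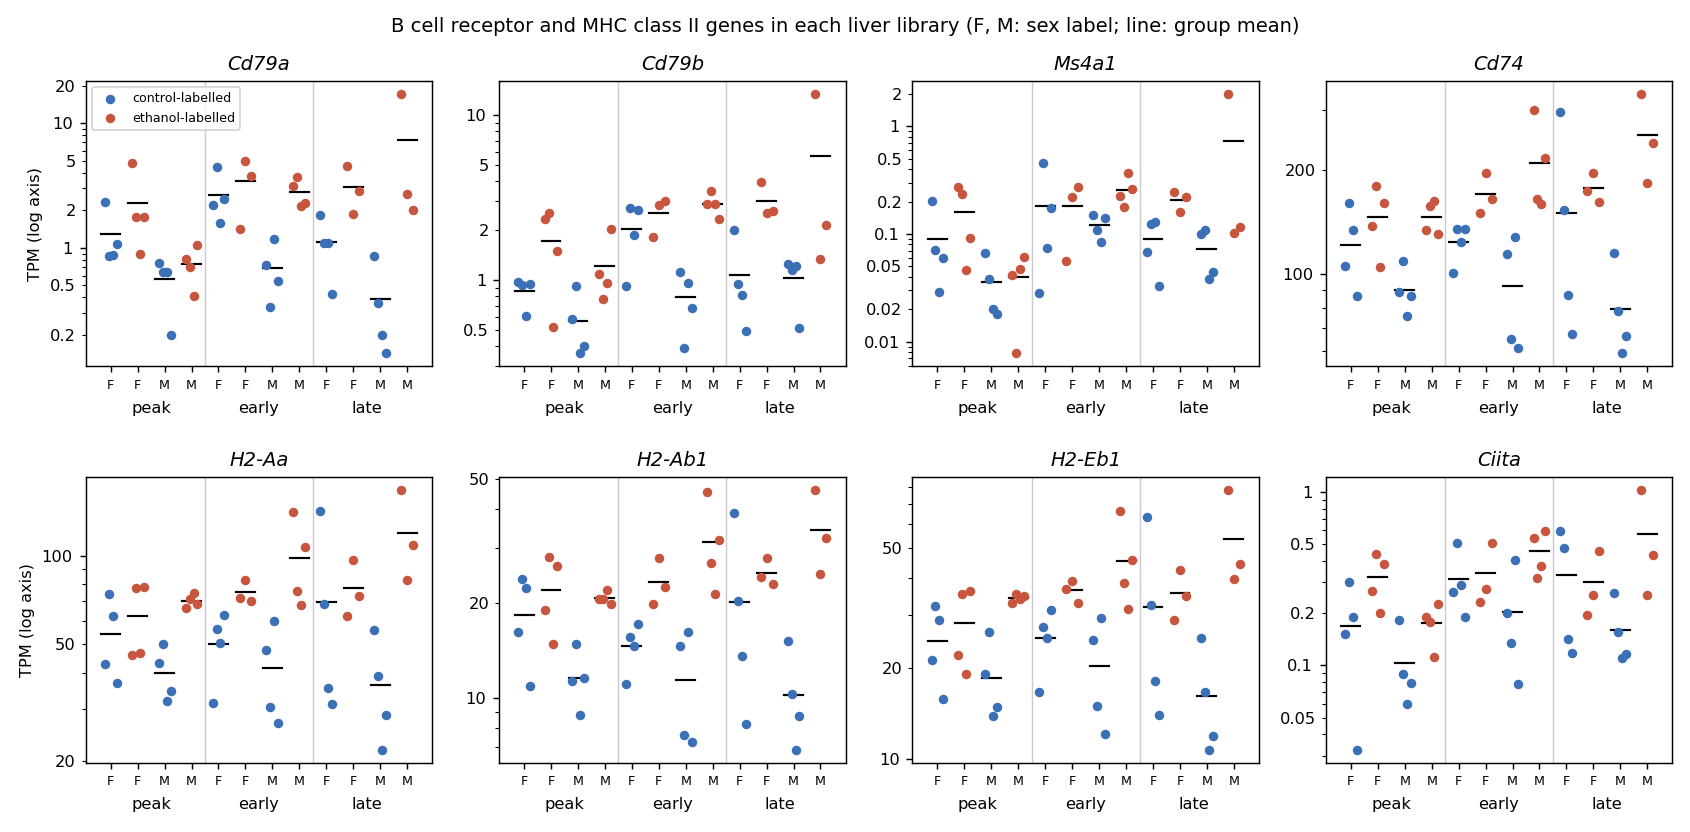
TPM of each member in each of the 45 libraries on log axes, by stage, sex label (F, M) and diet label (colour), with a line at the group mean. Cd79a, Cd79b and Ms4a1 are highest in late ethanol male 1 (17.1, 13.4 and 1.99 TPM), and Cd74 in late control female 1 (294 TPM) lies above the other late control-labelled libraries.

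Cd79a (chromosome 7, 24897381 to 24902197, plus strand, mm10, protein coding in GENCODE M21) had the largest difference between diet labels, at late resolution. The late ethanol-labelled libraries held 4.55, 1.855 and 2.86 TPM (female) and 17.1, 2.69 and 2.02 TPM (male). The late control-labelled libraries held 1.847, 1.095, 1.087 and 0.426 TPM (female) and 0.855, 0.360, 0.202 and 0.142 TPM (male). All 6 ethanol-labelled libraries lay above all 8 control-labelled ones, the closest pair being 1.855 and 1.847 TPM, and the male-labelled groups were the farthest apart. At that stage 0.391% of the genes tested had the 6 ethanol-labelled libraries above every control-labelled one. The log2 difference (on the log2(TPM + 0.5) scale, averaged over the sex labels) was 1.89 ± 0.33 (SE, limma with Benjamini-Hochberg adjustment over 11244 genes, adjusted p = 1e-04). It was 1.45 without late ethanol male 1 and 1.55 without both libraries that stand apart (adjusted p = 0.00085 and 0.00028).

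At early resolution Cd79a in the ethanol-labelled libraries was 1.41, 5.01 and 3.80 TPM (female) and 3.13, 3.70, 2.16 and 2.29 TPM (male). The control-labelled ones had 2.19, 4.43, 1.59 and 2.47 TPM (female) and 0.728, 0.332, 1.18 and 0.540 TPM (male). The female-labelled ranges overlapped and the male-labelled ranges did not. The averaged difference of 0.87 ± 0.32 (SE) missed the threshold by limma (adjusted p = 0.053, higher in 6 of 7 libraries) and passed it without early ethanol female 1 (1.09, adjusted p = 0.013), early control female 2 (0.99, 0.036) or early control male 3 (0.96, 0.04). At peak the ethanol-labelled libraries ran from 0.41 to 4.78 TPM (median 0.978) and the control-labelled ones from 0.2 to 2.34 TPM (median 0.809). The peak difference was 0.39 ± 0.30 (SE, adjusted p = 0.35 by limma) and did not pass.

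Cd79b (chromosome 11, 106311341 to 106314762, minus strand) is the signalling partner of Cd79a and was called with it at late resolution. Its late ethanol-labelled libraries held 3.91, 2.54 and 2.62 TPM (female) and 13.4, 1.34 and 2.14 TPM (male). The late control-labelled libraries held 2.01, 0.949, 0.815 and 0.489 TPM (female) and 1.24, 1.14, 1.21 and 0.513 TPM (male). The groups overlapped through late control female 1 alone: without it, the highest control-labelled value was 1.24 TPM against 1.34 TPM as the lowest ethanol-labelled one. With that library left out, 3.90% of all genes tested were apart in this way. The late difference was 1.34 ± 0.29 (SE, adjusted p = 0.0019 by limma, higher in 6 of 6 libraries), 0.90 without late ethanol male 1 and 1.03 without both libraries that stand apart.

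At early resolution Cd79b was 1.82 to 3.45 TPM (median 2.88) in ethanol-labelled and 0.388 to 2.74 TPM (median 1.04) in control-labelled libraries. The difference of 0.87 ± 0.28 (SE, adjusted p = 0.031 by limma, higher in 6 of 7 libraries) lost its call when any of 6 of the 15 libraries was left out: early control female 1, early ethanol female 2, early ethanol female 3, early control male 2, early control male 4 or early ethanol male 2 (adjusted p up to 0.081). It was also lost after median-of-ratios scaling (0.73, adjusted p = 0.05). At peak the ranges were 0.521 to 2.55 TPM and 0.359 to 0.968 TPM, and the difference of 0.63 ± 0.27 (SE, adjusted p = 0.081 by limma) did not pass.

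Ms4a1 (CD20; chromosome 19, 11249675 to 11266241, minus strand) was near the floor of the table. Late ethanol-labelled libraries held 0.243, 0.162 and 0.220 TPM (female) and 1.99, 0.103 and 0.116 TPM (male). The 8 late control-labelled libraries ran from 0.0333 to 0.13 TPM with a median of 0.0838 TPM. All 3 late ethanol females lay above every control-labelled library, and of the late ethanol males only late ethanol male 1 did. The late difference on the log2(TPM + 0.1) scale was 1.07 by a two-sided exact permutation test within sex labels (p = 0.0016, adjusted p = 0.02 over 12 such tests of Ms4a1 and Ciita). Without late ethanol male 1 it was 0.52 (exact permutation p = 0.0095). With no filter on low genes, limma on the log2(TPM + 0.5) scale gave 0.52 and an adjusted p of 0.065, which does not pass. Ms4a1 gave 0.23 at peak and 0.41 at early resolution (exact permutation, adjusted p = 0.44 and 0.39).

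In order of group means, Cd79a ran from late ethanol male (7.28 ± 8.54 TPM, SD, n = 3) over early ethanol female (3.41 ± 1.83, n = 3), late ethanol female (3.09 ± 1.36, n = 3), early ethanol male (2.82 ± 0.728, n = 4), early control female (2.67 ± 1.23, n = 4) and peak ethanol female (2.30 ± 1.70, n = 4) to the 6 lower groups. Those were peak control female (1.29 ± 0.708, n = 4), late control female (1.11 ± 0.581, n = 4), peak ethanol male (0.745 ± 0.270, n = 4), early control male (0.695 ± 0.362, n = 4), peak control male (0.559 ± 0.245, n = 4) and late control male (0.390 ± 0.324, n = 4). Of the 11 steps between neighbours in that order, 0 exceeded the larger SD of the pair, so neighbours did not differ beyond their spread. The 4 groups at the top were ethanol-labelled resolution groups, and 3 of the 4 lowest were control-labelled male groups.

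The MHC class II structural genes varied closely together. Ciita is known to act through short sequence elements in MHC class II promoters. Whether such elements bear on the levels here was not tested, and no promoter window was matched for Cd74 or H2-Ab1. The transactivator binds no DNA itself: it docks on factors bound to the X and Y boxes upstream of each gene. RefSeq promoter windows (GRCm38.p6, 250 bases before to 50 bases after the start) were matched for 3 of 8 members, Cd79a, H2-Aa and H2-Eb1. The windows of H2-Aa (chr17:34287774-34288073, minus strand) and H2-Eb1 (chr17:34305617-34305916, plus strand) are shown for these boxes. H2-DMb1 (chr17:34152941-34153240, plus strand), a non-member whose level varied most closely with theirs, is shown beside them; windows of H2-DMa and H2-DMb2 were also searched. Capitals mark matches, on either strand, to the Y box core GATTGG and its longer form CTGATTGG, which contains it, to an X box core AACTGATG, to the cyclic AMP response element TGACGTCA and to the octamer ATGCAAAT.
H2-Aa: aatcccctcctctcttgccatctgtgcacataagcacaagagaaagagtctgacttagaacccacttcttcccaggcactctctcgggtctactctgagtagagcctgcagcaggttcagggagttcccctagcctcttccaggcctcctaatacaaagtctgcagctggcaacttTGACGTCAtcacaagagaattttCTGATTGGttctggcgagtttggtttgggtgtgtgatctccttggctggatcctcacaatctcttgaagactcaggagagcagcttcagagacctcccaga
H2-Eb1: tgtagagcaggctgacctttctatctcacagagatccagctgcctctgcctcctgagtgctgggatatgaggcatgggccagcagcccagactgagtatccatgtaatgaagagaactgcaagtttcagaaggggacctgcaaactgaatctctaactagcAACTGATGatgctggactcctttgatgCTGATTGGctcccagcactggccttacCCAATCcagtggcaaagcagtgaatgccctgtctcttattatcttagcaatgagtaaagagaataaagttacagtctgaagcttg
H2-DMb1: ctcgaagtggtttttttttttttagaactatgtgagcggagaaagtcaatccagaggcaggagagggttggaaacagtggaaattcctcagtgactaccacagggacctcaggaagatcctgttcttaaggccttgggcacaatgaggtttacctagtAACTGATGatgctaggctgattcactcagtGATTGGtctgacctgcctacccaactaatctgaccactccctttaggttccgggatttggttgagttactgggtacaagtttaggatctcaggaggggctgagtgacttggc
Cd79a: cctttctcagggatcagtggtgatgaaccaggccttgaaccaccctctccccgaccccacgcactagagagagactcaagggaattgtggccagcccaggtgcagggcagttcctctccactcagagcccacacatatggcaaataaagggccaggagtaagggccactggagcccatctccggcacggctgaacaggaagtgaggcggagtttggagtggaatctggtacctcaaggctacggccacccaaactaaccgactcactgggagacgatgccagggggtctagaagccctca
The 3 MHC class II windows shown hold the Y box core, starting 49 bases before the transcription start in H2-Aa, 60 in H2-Eb1 (with another match on the opposite strand at 35) and 62 in H2-DMb1. Of the windows not shown, that of H2-DMb2 and 1 of 2 windows of H2-DMa hold the core, and the other H2-DMa window holds none of the motifs. The core is common: 16.1% of 32851 promoter windows of the same length hold it. The longer CTGATTGG, in H2-Aa and H2-Eb1, is in 4.1%. AACTGATG lies 21 bases upstream of the Y box core in H2-Eb1 and 22 in H2-DMb1 and is in 0.776% of all windows. H2-Aa lacks these letters and has TGACGTCA (1.79% of windows) starting 74 bases before its start. The Cd79a window (chr7:24897247-24897546, plus strand), the only B cell member matched, holds none of these motifs, the octamer included (1.74% of windows). These matches describe the letters and were not tested for binding.

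Cd74 (chromosome 18), the most abundant member, separated the diet labels at early resolution. Ethanol-labelled libraries held 150, 197 and 166 TPM (female) and 298, 166, 160 and 218 TPM (male). Control-labelled libraries held 100.8, 135, 124 and 135 TPM (female) and 114, 65.0, 128 and 61.2 TPM (male). The 7 ethanol-labelled libraries all lay above the 8 control-labelled ones. So did those of H2-Aa, H2-Ab1 and H2-Eb1 (for H2-Eb1 by 31.4 against 31.3 TPM), that is 4 of 6 tested members, where 1.85% of all genes tested were apart in this way at early resolution and 2.16% at peak. At peak the ranges of every member overlapped.

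By limma at early resolution, 5 of 6 tested members were higher in ethanol-labelled libraries, against 14.3% of all genes tested called higher, and the sixth was Cd79a. Cd74 differed by 0.84 ± 0.22 (SE, adjusted p = 0.0065), higher in 7 of 7 libraries. H2-Ab1, the I-A beta chain (chromosome 17, 34257689 to 34269419, plus strand), had the largest difference, 1.06 ± 0.23 (SE, adjusted p = 0.0014). Its ethanol-labelled libraries ran from 19.9 to 45.3 TPM (median 26.8) and its control-labelled ones from 7.22 to 17.2 TPM (median 14.6). H2-Aa, the I-A alpha chain (chromosome 17, 34282744 to 34287823, minus strand), differed by 0.93 ± 0.25 (SE, adjusted p = 0.0086), with 68.3 to 141 TPM against 27.1 to 62.8 TPM. H2-Eb1 (chromosome 17, 34305867 to 34316674, plus strand) differed by 0.86 ± 0.25 (SE, adjusted p = 0.014). The median gene differed by 0.13 in this comparison as deposited and by -0.03 after median-of-ratios scaling, which scales each library by its median gene. After it the 4 MHC class II differences were 0.66 to 0.88, all called.

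At late resolution 6 of 6 tested members were higher in ethanol-labelled libraries, against 8.82% of all genes tested. H2-Ab1 differed by 1.11 ± 0.24 (SE, adjusted p = 0.0016), Cd74 by 1.07 ± 0.23 (SE, 0.0013), H2-Aa by 1.07 ± 0.26 (SE, 0.0051) and H2-Eb1 by 1.04 ± 0.26 (SE, 0.0056), each in 6 of 6 libraries. Cd74 in the late ethanol-labelled libraries was 175, 196 and 162 TPM (female) and 333, 184 and 241 TPM (male). In the late control-labelled libraries it was 294, 153, 87.1 and 67.0 TPM (female) and 115, 78.2, 58.9 and 66.1 TPM (male). One control-labelled value, 294 TPM in late control female 1, reached into the upper part of the ethanol-labelled range, and the next highest was 153 TPM. Without that library the differences rose to 1.27 for Cd74, 1.28 for H2-Aa, 1.30 for H2-Ab1 and 1.25 for H2-Eb1. Without late ethanol male 1 they were 0.96, 0.93, 1.00 and 0.89, and 6 of 6 members were called in either case and with both left out. Of all genes, 14.2% were called higher without late control female 1, 5.55% without late ethanol male 1 and 10.2% without both. With the late libraries fitted on their own, H2-Aa and H2-Eb1 did not pass (adjusted p = 0.061 and 0.057), where 4.03% of all genes were called higher in that fit, although their differences were the same.

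At peak 0 of 6 tested members were called by limma, against 17.3% of all genes called higher, and 5 of 6 had an unadjusted p under 0.05. No other tool was run across genes. The differences were 0.39 to 0.63, all positive, where the median of all genes was 0.05. Cd74 was 105 to 180 TPM (median 148) in ethanol-labelled and 75.8 to 161 TPM (median 97.2) in control-labelled peak libraries. The difference of 0.49 ± 0.21 (SE, adjusted p = 0.079) had a 95% interval from 0.06 to 0.91. With the peak libraries fitted on their own, 5 of 6 members were called, all but Cd79a, where 17.6% of all genes were called higher in that fit.

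Ciita, the transactivator of the set (chromosome 16, 10480059 to 10528418, plus strand), was between 0.0327 and 1.02 TPM in all 45 libraries. Peak ethanol-labelled libraries held 0.266, 0.439, 0.199 and 0.385 TPM (female) and 0.190, 0.177, 0.112 and 0.226 TPM (male). Peak control-labelled libraries held 0.152, 0.300, 0.189 and 0.0327 TPM (female) and 0.183, 0.0896, 0.0595 and 0.0790 TPM (male). The ranges overlapped in both sex labels. On the log2(TPM + 0.1) scale the difference was 0.59 at peak, 0.52 at early and 0.63 at late resolution (two-sided exact permutation within sex labels, p = 0.013, 0.075 and 0.13, adjusted p = 0.052, 0.18 and 0.26). None passed the threshold. At late resolution Ciita gave 0.40 without late ethanol male 1 and 0.77 without late control female 1 (exact permutation p = 0.24 and 0.056).

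**Figure D2:**
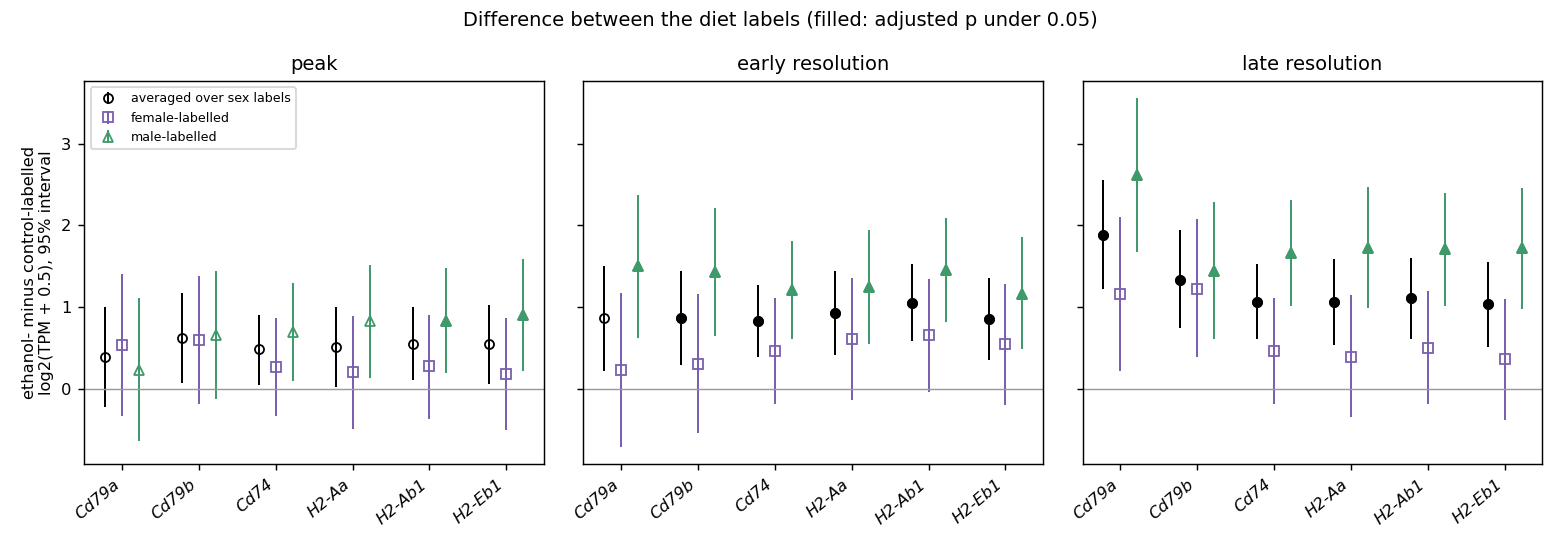
Ethanol-labelled minus control-labelled difference in log2(TPM + 0.5) with its 95% interval for the 6 tested members at each stage, averaged over the sex labels and within each, filled where the adjusted p is under 0.05. The averaged differences span 0.39 to 0.63 at peak, 0.84 to 1.06 at early and 1.04 to 1.89 at late resolution, and with all libraries in, the male-labelled ones lie above the female-labelled ones in all but Cd79a at peak.

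The difference between diet labels was then read within each sex label. In male-labelled libraries 6 of 6 tested members were called higher at late resolution (3.66% of all genes), 6 of 6 at early resolution (7.04%) and 2 of 6 at peak (10.7%). With all libraries in, 0 of 6 were called in female-labelled libraries at peak, early or late (5.03%, 2.45% and 1.41% of all genes), with 0, 0 and 2 members at an unadjusted p under 0.05 by limma. Late male-labelled Cd79a differed by 2.61 ± 0.46 (SE, adjusted p = 0.00021 by limma), which is 6.12-fold in TPM + 0.5. Its group means were 7.28 ± 8.54 TPM and 0.390 ± 0.324 TPM (SD), so the added 0.5 makes that ratio smaller than the ratio of TPM. H2-Aa differed by 1.73 ± 0.37 (SE, adjusted p = 0.0021 by limma). The late female-labelled differences were 1.16 ± 0.46 (SE) for Cd79a and 0.40 ± 0.37 (SE) for H2-Aa (adjusted p = 0.17 and 0.56). For Cd79b the 2 values were 1.23 ± 0.42 (SE, adjusted p = 0.10) in female-labelled and 1.45 ± 0.42 (SE, adjusted p = 0.028) in male-labelled libraries. The female-labelled values depend on late control female 1. Without it H2-Aa differed by 0.84, Cd74 by 0.87 (0.47 with it), H2-Ab1 by 0.89, H2-Eb1 by 0.77 and Cd79a by 1.36, none of them called (adjusted p = 0.052 to 0.14), and Cd79b by 1.49 was called (adjusted p = 0.028; 7.0% of all genes were called higher). In female-labelled libraries Cd79b alone was called without late ethanol male 1 (1.23, adjusted p = 0.028; 1.29% of all genes). Without both libraries 3 of 6 members were called, Cd79b, Cd79a and Cd74 (6.60% of all genes).

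The difference between the sex labels in this response was tested directly and did not pass. For 0 of 6 members was the interaction called at peak, early or late resolution (0.160%, 0.00889% and 0.0445% of all genes were), with 0, 0 and 5 members at an unadjusted p under 0.05 by limma. At late resolution it was 1.46 ± 0.66 (SE) for Cd79a and 1.19 to 1.35 for Cd74, H2-Aa, H2-Ab1 and H2-Eb1 (adjusted p = 0.44 to 0.56), and 0.22 ± 0.59 (SE) for Cd79b. Without late control female 1 these values were 1.25 for Cd79a, 0.79 to 0.95 for the 4 MHC class II members and -0.04 for Cd79b. Without both libraries they were 0.37, 0.57 to 0.65 and -0.92 (adjusted p = 0.63 to 0.81), so the size of this contrast, and for Cd79b its sign, rests on them. The calls within male-labelled libraries rest on few libraries. Without late ethanol male 1 the late Cd79b difference was 0.57 (adjusted p = 0.43) and Cd79a 1.74 (adjusted p = 0.016); Cd79b was also lost without late control male 2 or late control male 4. The 2 peak calls, H2-Eb1 (0.91) and H2-Ab1 (0.84), were each lost in 7 of 8 leave-one-out fits. At early resolution the calls of Cd79a, H2-Aa and H2-Eb1 were lost without early control male 2, early control male 4 or early ethanol male 1. That of Cd79b was lost without early control male 2, that of Cd79a also without early ethanol male 2, and that of H2-Eb1 also without early ethanol male 4.

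Within control-labelled libraries no tested member passed against peak. Early minus peak and late minus peak called 0 of 6 members each (0.729% and 0.676% of all genes in either direction), with 0 at an unadjusted p under 0.05 by limma in each. Within ethanol-labelled libraries the B cell receptor chains rose. Cd79a was higher than at peak by 0.97 ± 0.32 (SE, adjusted p = 0.023) at early and 1.28 ± 0.33 (SE, adjusted p = 0.0056) at late resolution. Cd79b was higher by 0.79 ± 0.28 (SE, 0.037) and 1.03 ± 0.29 (SE, 0.011). These are 2 of 6 members in each comparison, where 21.6% and 17.5% of all genes were called higher, so the count is close to the background. The 4 MHC class II members gave 0.32 to 0.38 and 0.44 to 0.53 and were not called. The early Cd79a call was lost without peak ethanol female 3, early ethanol female 2 or early ethanol female 3. The early Cd79b call was lost in 9 of 15 leave-one-out fits and after median-of-ratios scaling (0.64, adjusted p = 0.067), and the late one without late ethanol male 1 (0.59, adjusted p = 0.085). The late Cd79a value without that library was 0.84 (adjusted p = 0.041). Without late control female 1, Cd74 was called as well (0.53, adjusted p = 0.043).

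The growth of the diet label difference itself passed for Cd79a alone. From peak to late resolution it grew by 1.49 ± 0.45 (SE, adjusted p = 0.049 by limma), 1 of 6 members where 1.07% of all genes were called higher. That call was lost in 20 of 30 leave-one-out fits, and without late ethanol male 1 the value was 1.05 (adjusted p = 0.097). The other 5 members gave 0.49 to 0.71; without late ethanol male 1 the value of Cd79b was 0.27. From peak to early and from early to late resolution 0 of 6 members were called, as was 0.00% of all genes in each, with 0 and 1 member (Cd79a) at an unadjusted p under 0.05 by limma. A larger difference at late resolution than at peak is therefore not shown for the MHC class II members. The comparisons within and between stages share libraries.

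Between the sex labels, Cd79a was lower in male-labelled libraries at peak, by 0.87 ± 0.30 (SE, adjusted p = 0.018 by limma, 8 of 8 libraries). It was 1 of 6 members called there, against 46.7% of all genes called lower. The median gene fell by 0.29 in that comparison, and after median-of-ratios scaling Cd79a gave -0.65 (adjusted p = 0.074). It was also lost without peak ethanol female 1 (-0.69, adjusted p = 0.059), the peak library with the most Cd79a. At early and late resolution 0 of 6 members were called (0.596% and 3.25% of all genes in either direction), with 1 (Cd79a) and 0 members at an unadjusted p under 0.05 by limma. For Ms4a1 at peak the male-labelled libraries gave -0.62 (exact permutation p = 0.013, adjusted p = 0.052).

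The members fall into 2 sets by how they vary among libraries of the same group. Over deviations from the group means in 45 libraries, the pairs among Cd74, H2-Aa, H2-Ab1 and H2-Eb1 had Pearson r of 0.95 to 0.98, and Ciita had 0.73 to 0.75 with them. Cd79a, Cd79b and Ms4a1 had r of 0.76 to 0.79 among themselves, or 0.67 to 0.72 without late ethanol male 1. Between the sets, excluding Ciita, r was 0.24 to 0.56. Ciita had 0.54, 0.59 and 0.53 with Cd79a, Cd79b and Ms4a1, or 0.43, 0.49 and 0.40 without late ethanol male 1. All pairs share the libraries and their scaling, and these are descriptions with no test.

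**Figure D3:**
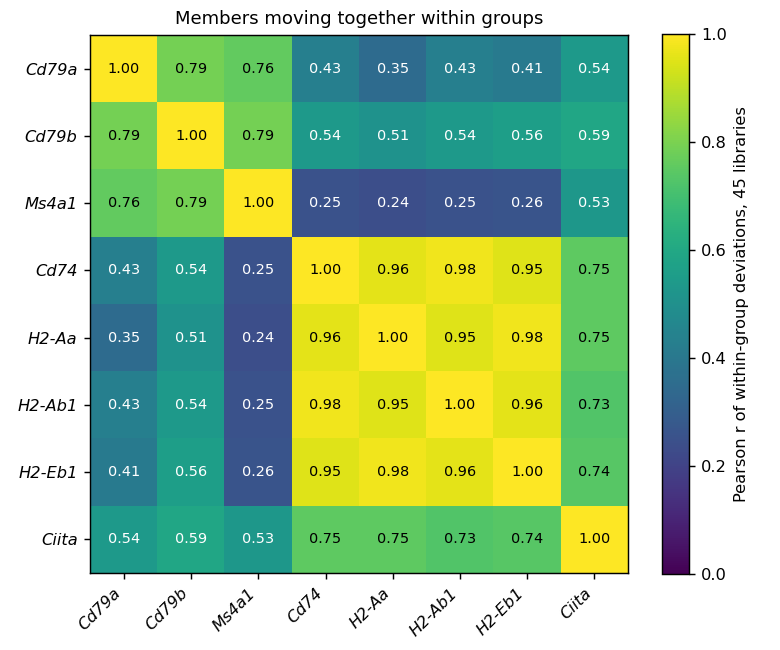
Pearson r between members, over deviations of log2 levels from the group means in 45 libraries; darker cells are lower. The square of Cd74, H2-Aa, H2-Ab1 and H2-Eb1 holds 0.95 to 0.98 and the B cell receptor set 0.76 to 0.79, with lower values between them.

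The genes most like each set were named by the highest r over the same 45 libraries, out of 10838 genes. For the B cell receptor set they included Sash3 (0.81), Il16 (0.79), Cd22 (0.78), Mzb1 (0.77), Snn, Icosl and Itgb7 (0.76 each). Without late ethanol male 1 the r of Sash3 was 0.75 and that of Mzb1 0.65. For the MHC class II set they were H2-DMb1 (0.88) and H2-DMa (0.85), the chains of the peptide exchange factor of this pathway, then Itgax (0.84), which encodes the dendritic cell integrin CD11c, Fermt3 (0.83), Cotl1 (0.82), Hcls1, Aif1 and Evl (0.81 each).

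**Figure D4:**
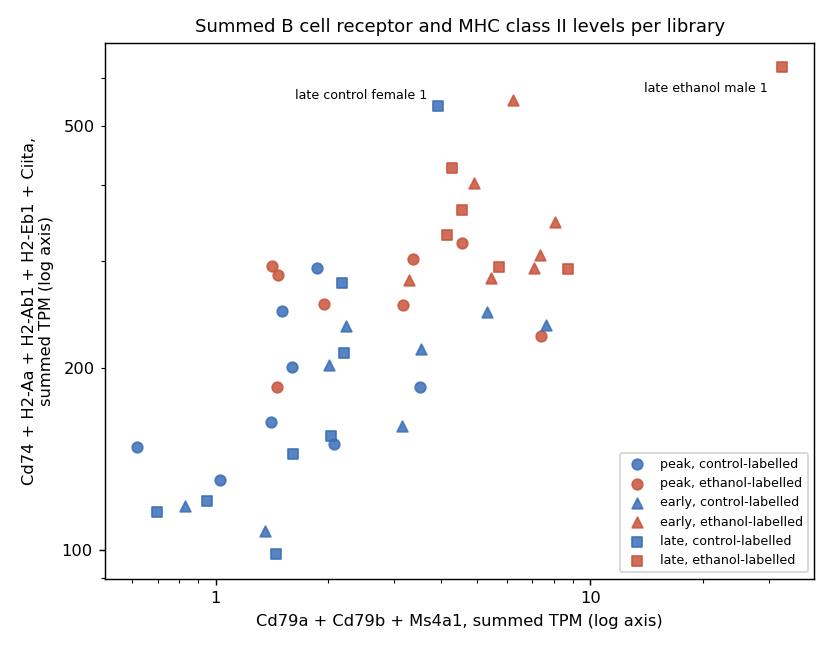
Summed TPM of Cd79a, Cd79b and Ms4a1 against summed TPM of the 5 MHC class II members in each of the 45 libraries, on log axes, by stage (marker) and diet label (colour). Late ethanol male 1 lies at the upper right (32.5 and 625 TPM), and late control female 1 has 540 TPM of MHC class II at 3.92 TPM of B cell receptor genes.

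Other genes of B cells gave the same direction as Cd79a and Cd79b. The table holds 18 other B cell markers. Of these, 8 were tested, and 2, 4 and 7 were higher in ethanol-labelled libraries at peak, early and late resolution, with 0 lower. Over all genes tested, 17.3%, 14.3% and 8.82% were called higher at these stages. Those shares are the background for the counts of this list and of the lists that follow. Cd22, an inhibitory lectin of B cells, differed by 0.87 ± 0.21 (SE, adjusted p = 0.0056 by limma) at late resolution, and the tetraspanin Cd37 by 0.94 ± 0.20 (SE, adjusted p = 0.0015). They differed by 0.61 and 0.71 without late ethanol male 1 (adjusted p = 0.045 and 0.014 by limma). In that fit 3 of 8 markers were called in place of 7, where 5.55% of all genes were called higher. Without both libraries that stand apart 7 of 8 were called (10.2% of all genes). Vpreb3, a gene of B cell precursors, was higher at all 3 stages (1.05, 1.18 and 0.78). The median of the 8 genes was 0.29, 0.68 and 0.84, beside 0.05, 0.13 and 0.05 for all genes. Of 24 other B cell markers and 13 plasma cell genes sought, 18 and 8 had a usable entry. The immunoglobulin constant region genes of the plasma cell list had none, and immunoglobulin constant region genes were not analysed here.

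Of 5 plasma cell genes tested, 0 were called at late resolution by limma (1, Jchain, at an unadjusted p under 0.05), and 2 higher and 1 lower at peak. Jchain, which joins secreted antibodies, gave 0.65 (adjusted p = 0.1) and Mzb1, a chaperone of antibody-secreting cells, 0.46 (adjusted p = 0.31) at late resolution. Mzb1 was higher in 3 of 6 libraries and gave -0.02 without late ethanol male 1. Sdc1, which hepatocytes also express, was higher at peak (0.93, adjusted p = 4.2e-07) and at early resolution (0.49, adjusted p = 0.0073). Derl3, of the endoplasmic reticulum, was lower at both (-1.06 and -1.40).

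Of genes that recruit or sustain B cells, 9 of 14 were tested. Tnfsf13 (APRIL), a survival factor for antibody-secreting cells, was higher at peak, early and late resolution (0.58, 0.57 and 0.59). The other 3 calls were at peak: Tnfsf13b (BAFF, 0.55, adjusted p = 0.0025) and the lymphoid chemokines Ccl19 (0.76, 0.0081) and Ccl21a (1.39, 0.029). Cxcl13, the chemokine that draws B cells into follicles, gave 0.25, 0.66 and 0.79 with adjusted p of 0.66, 0.25 and 0.19.

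Further genes of the MHC class II pathway moved in part with the members. Of 15 tested, 4, 9 and 6 were higher at peak, early and late resolution, and 0 lower. The late count was 2 without late ethanol male 1 (5.55% of all genes were called higher) and 7 without both libraries that stand apart (10.2%). H2-DMa (4.58 to 9.10 TPM against 1.60 to 5.2 TPM at early resolution) differed by 0.92 and 0.94 at early and late resolution (adjusted p = 0.0017 and 0.0027 by limma). H2-DMb1 differed by 1.00 and 0.94 (adjusted p = 0.0031 and 0.0095), and the lysosomal thiol reductase Ifi30 by 0.52 and 0.44 (0.0077 and 0.037). The late Ifi30 call was lost without late ethanol male 1 (0.43, adjusted p = 0.077). H2-DMb1 and H2-DMb2 are near-identical neighbours, so reads may be split between them. The transcription factors that bind the boxes shown above were called mainly at peak. Nfyb was higher at peak (0.71, adjusted p = 4.5e-05) and early resolution (0.39, 0.034), and at peak so were Rfxank (0.38, 0.043) and Rfxap (0.18, 0.039), while Rfx5, Nfya, Nfyc and Creb1 were called at none of the 3 stages.

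Among genes of the interferon gamma axis, which induces Ciita, 7, 6 and 6 of 13 tested were higher at peak, early and late resolution. They included the GTPases Gbp3 (1.37, 1.48 and 1.59), Gbp2 (1.49, 1.15 and 1.15) and Igtp (0.80, 0.91 and 0.87) and the receptor chain Ifngr1 (0.59, 0.51 and 0.49). Ifng itself was listed at 0 in 20 of 45 libraries and reached 0.0542 TPM at most. In MHC class I presentation 4, 6 and 4 of 12 tested genes were higher, among them H2-D1 (0.47, 0.47 and 0.42), Tapbp (0.45, 0.56 and 0.63) and the immunoproteasome subunit Psmb8 (0.37, 0.74 and 0.81, not called at peak). The chaperone Pdia3 was lower at peak and early resolution (-0.27 and -0.48).

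**Figure D5:**
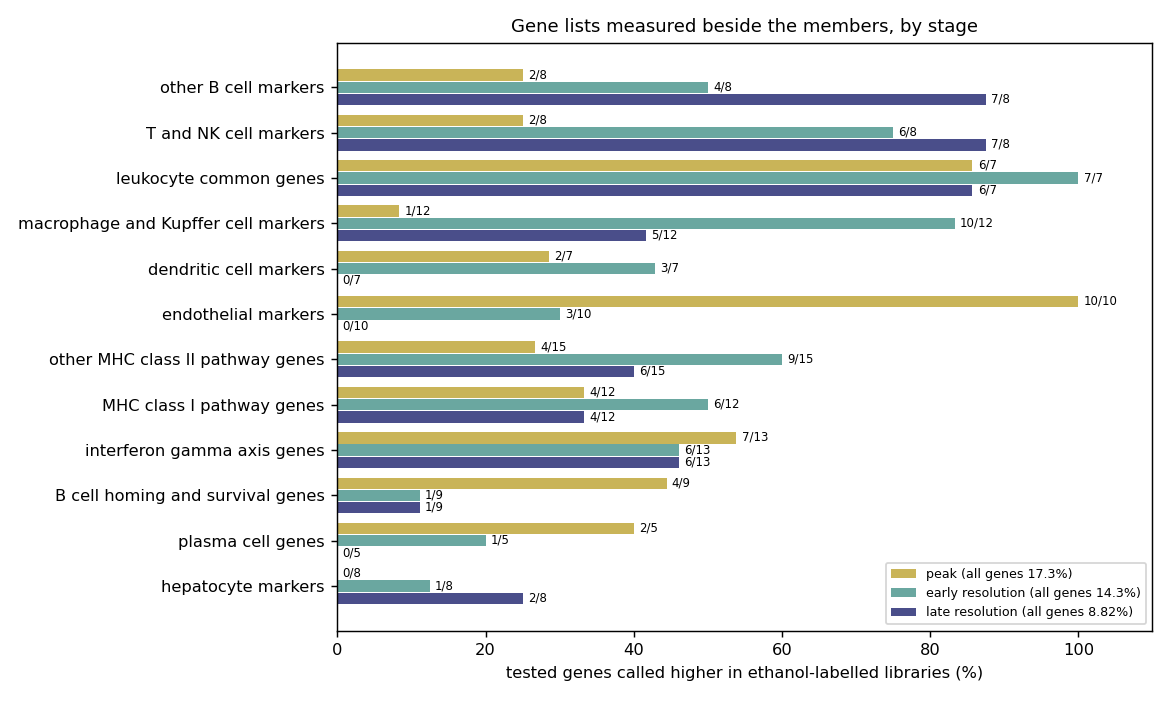
Share of the tested genes of each list that were called higher in ethanol-labelled libraries at each stage, with the counts beside the bars and the share over all genes in the key. Other B cell markers go from 2 to 4 to 7 of 8, T and NK cell markers from 2 to 6 to 7 of 8, and endothelial markers from 10 to 3 to 0 of 10.

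Markers of some other cells moved with the members and those of others did not, and their part in these results was not tested. The shares of all genes tested that were called higher were 17.3%, 14.3% and 8.82% at peak, early and late resolution. Of leukocyte common genes 6, 7 and 6 of 7 were higher at peak, early and late resolution. Of T and NK cell markers 2, 6 and 7 of 8 were higher, with Cd2 at 1.34 and Cd3g at 0.99 at late resolution, while Cd4 was lower at peak and early resolution (-0.63 and -1.21). Of macrophage and Kupffer cell markers 1, 10 and 5 of 12 were higher, with C1qb at 0.85 and 0.88 at early and late resolution. Of dendritic cell markers 2, 3 and 0 of 7 and of endothelial markers 10, 3 and 0 of 10 were higher. Hepatocyte markers gave 0, 1 and 2 of 8 higher and 0, 0 and 2 lower. Of 5 red blood cell genes only Alas2 was called, lower at all 3 stages (-2.67, -2.61 and -2.81); Hbb-bs was listed at 0 in 39 of 45 libraries.

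These late counts rest in part on the libraries that stand apart. Without late control female 1, 11 of 12 macrophage, 4 of 7 dendritic cell and 2 of 10 endothelial markers were higher, and without both libraries 10, 2 and 0. The share of all genes called higher moved as well, from 8.82% to 14.2% and 10.2% in these 2 fits. It was 5.55% without late ethanol male 1. With late ethanol male 1 left out, 3 of 7 leukocyte common genes were called higher; for T and NK cells it was 5 of 8 genes (and 1 lower), with Cd2 at 1.07 and Cd3g at 0.79.

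The summed levels place these lists beside the members. At late resolution the control-labelled and ethanol-labelled ranges were 32.1 to 78.7 and 52.6 to 108 TPM for leukocyte common genes, 223 to 911 and 519 to 856 TPM for macrophage markers, and 3.25 to 12.7 and 9.48 to 28.4 TPM for T and NK cell markers. Dendritic cell markers ran from 4.15 to 14.4 and from 6.97 to 15.6 TPM, and other B cell markers from 7.7 to 23.5 and from 18.5 to 54.1 TPM. At early resolution they were 24 to 54.3 and 47.9 to 82.9 TPM (leukocyte), 179 to 590 and 480 to 786 TPM (macrophage), 4.43 to 10.1 and 7.24 to 21.9 TPM (T and NK), and 4.32 to 8.07 and 7.21 to 13.8 TPM (dendritic). Across the 45 libraries, within groups, the MHC class II set had r of 0.87 with summed dendritic cell markers, 0.83 with leukocyte common genes and 0.72 with macrophage markers. The B cell receptor set had 0.41, 0.61 and 0.26 with the same lists. With T and NK cell markers the B cell receptor set had 0.65 and the MHC class II set 0.59. Summed other B cell markers had 0.67 with the B cell receptor set and 0.74 with the MHC class II set. For summed plasma cell genes these values were -0.34 and 0.04. That sum was almost wholly Sdc1, which hepatocytes also express, and Xbp1. Group means ran from 70.4 to 178 TPM for Sdc1 and from 35.7 to 97.1 TPM for Xbp1. They ran from 0.127 to 2.3 TPM for Jchain and from 0.201 to 2.74 TPM for Mzb1. The r of the sum therefore cannot show how antibody-secreting cells varied with either set.

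Both libraries that stood apart were the highest of their label at late resolution in several of the same sums. For the B cell receptor members these were 32.5 TPM in late ethanol male 1 (others 4.14 to 8.7) and 3.92 TPM in late control female 1 (others 0.699 to 2.2). For the MHC class II members they were 625 TPM (others 291 to 427) and 540 TPM (others 98.5 to 276), and for dendritic cell markers 15.6 TPM (others 6.97 to 12.9) and 14.4 TPM (others 4.15 to 8.91). Late ethanol male 1 was the highest of all 45 libraries in Cd22 (4.40 TPM), Fcer2a (2.69), Pax5 (0.722), Blk (1.97) and the B cell chemokine receptor Cxcr5 (3.05), as in the 3 B cell receptor members. Its summed T and NK cell markers (28.4 TPM, others 9.48 to 13.3 among late ethanol-labelled libraries), leukocyte common genes (108 TPM, against 52.6 to 71.3) and endothelial markers (222 TPM, 135 to 179) were also the highest of the late ethanol-labelled libraries, and its macrophage sum (732 TPM) was not. Late control female 1 had summed macrophage markers of 911 TPM, leukocyte common genes of 78.7 TPM and T and NK cell markers of 12.7 TPM, against 223 to 434, 32.1 to 45.1 and 3.25 to 8.19 TPM in the other late control-labelled libraries. It was also above those libraries in hepatocyte markers (181704 TPM, others 104269 to 152241) and interferon gamma axis genes (326 TPM, others 166 to 237). It lay within their range in endothelial markers (140 TPM, others 87.3 to 168) and red blood cell genes (479 TPM, others 361 to 953). Its Cd79a (1.85 TPM) and Cd79b (2.01 TPM) were the highest of the late control-labelled libraries, and its Ms4a1 (0.0683 TPM) lay within the range of the others.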

How the data were processed

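One deposited table gives a value for 24972 genes in each of 45 libraries. The authors deposited TPM, as judged from the values: library sums lie between 999999 and 1000001, and longer genes have lower smallest values (rho = -0.65, Spearman, 1860 genes). Per the labels' protocols, a spin kit gave the RNA and a stranded mRNA kit the libraries; per the submitters' processing notes the build was mm10. For aligner, counter and annotation nothing was found (not given in the sources used here). TPM keep no depth, so counting precision is unknown.

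Names turned into dates (26 entries, 0.0441% of TPM) were left out, and 24946 genes remained. The test across genes was limma 3.58.1 (R 4.3.3) on log2(TPM + 0.5) for 11244 genes whose mean reached 0.5 TPM. Its design had 12 group means and a variance trend, with 33 residual plus 3.8 prior degrees of freedom. Benjamini-Hochberg adjustment ran over every gene tested, and "called" stands for an adjusted p under 0.05. Libraries "in the direction" lie beyond the opposite label's mean for the same stage and other label. Ms4a1 and Ciita had exact permutation tests on log2(TPM + 0.1), with labels permuted within stage and the other label. Correlations used deviations from group means. Tables and figures came from Python 3.11.15 with pandas 2.3.3, numpy 2.4.6, matplotlib 3.10.9 and scipy 1.17.1. Positions are GENCODE M21 entries and promoters RefSeq windows (3 of 8 members matched). The limma step was tested on simulated data.

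Members and lists were chosen with earlier results of these data known. Named are the 8 members, up to 4 tested genes per list with the smallest p in a comparison described, the sex chromosome genes and the 8 genes most like each set, less 1 that is not reported here. Ifng, Rfx5, Nfya, Nfyc, Creb1, Pax5, Blk, Fcer2a, Cxcr5, Xbp1 and Hbb-bs were named after their values were seen. Each alternative changed 1 choice: the pseudocount (0.1, 2), the filter (none, 5 TPM), the scaling (median of ratios, quantile), the variance trend, array weights, the stage fitted alone, a block for the replicate number, or 1 library left out. Leaving out both late libraries that stand apart, and every alternative for comparisons within a sex label or between stages and for the lists, were chosen after seeing the data.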

Additional observations from a re-analysis of the deposited data

Results flagged for a closer look

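In the groups of 4 libraries, each member's highest and lowest library was compared with the rest of its group (72 combinations of gene and group). Dixon's gap test flagged 3, where chance gives about 1 in 20, or 3.6. The number flagged is thus no more than chance gives, and the 3 are listed without further reading. Cd79a was 2.34 TPM in peak control female 1, against 0.867 to 1.07 TPM in the other peak control females. Cd79b was 0.605 TPM in peak control female 3, against 0.929 to 0.968 TPM in the others of that group. Cd79b was 0.513 TPM in late control male 4, against 1.14 to 1.24 TPM in the other late control males. The groups of 3 were not tested in this way, so late ethanol male 1 was not.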

How the results depend on the processing

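The number of tested members called between diet labels stayed at 6 of 6 at late resolution under each alternative run except the stage alone and the replicate block (4 each) and a mean of at least 5 TPM (4 of 4 tested), and at early resolution it ran from 4 to 6 over the libraries left out. At peak it was 0 and moved to 1 after median-of-ratios scaling or quantile normalization, 3 with array weights, 5 with the stage alone and 2 with the replicate block; over the libraries left out it ran from 0 to 2. Between sex labels at peak 1 member was called, 0 with a pseudocount of 2, a mean of at least 5 TPM, median-of-ratios scaling or quantile normalization, 2 with array weights and 0 to 1 over the libraries left out; at early resolution array weights called 1. Cd79a between sex labels at late resolution changed sign with a pseudocount of 2 (0.07) and ran from -0.56 to 0.14 over the libraries left out. The difference between sex labels in the late diet response of Cd79b (0.22) changed sign without late control female 1 (-0.04), without late ethanol male 1 (-0.67) and without both (-0.92). No diet label difference of a tested member changed sign. The cause of these changes was not tested.

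Whether replicate numbers pair libraries was checked by correlation. The 21 diet pairs had r from -0.371 to 0.25 (median -0.0530, 7 over 0.1). The 22 sex pairs had r from -0.433 to 0.527 (median -0.0227, 6 over 0.1). No pairing common to all was seen, but these values cannot exclude that some pairs share a source. The replicate block left out 3 and 1 libraries without a partner. It called 2, 6 and 4 members between diet labels at peak, early and late resolution; H2-Aa and H2-Eb1 missed the threshold at late resolution (0.88 and 0.83, adjusted p = 0.052 and 0.061). Over all genes, 68.9% of calls at late resolution were higher as deposited, 40.6% after median-of-ratios scaling and 48.6% after quantile normalization; at early resolution these were 85.3%, 45.5% and 50.5%, and at peak 63.8%, 42.1% and 45.9%. Genes called at late resolution numbered 1440, and from 580 with the replicate block to 3712 with array weights. After either scaling 0 called list genes changed sign, but macrophage markers higher went from 10 to 6 of 12 at early and from 5 to 8 at late resolution, other MHC class II pathway genes from 9 to 5 of 15 at early resolution, and endothelial markers from 3 to 0 of 10 there, after median-of-ratios scaling. Depth is unknown, and Ms4a1 and Ciita are so low in most libraries that most of their differences were not resolved. The exception was Ms4a1 between diet labels at late resolution (1.07, exact permutation, adjusted p = 0.02). With no filter on low genes, limma on log2(TPM + 0.5) gave 0.52 for that comparison and did not pass (adjusted p = 0.065). The 1.07 is on the log2(TPM + 0.1) scale, so the 2 sizes cannot be compared.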
